A study of Arabidopsis thaliana with 9 samples.

Results

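Arabinogalactan proteins (AGPs) and fasciclin-like arabinogalactan proteins (FLAs) are the subject here: 42 loci of Arabidopsis thaliana, 23 AGP and 19 FLA genes, picked by locus identifier from the 33201 rows of the expression table. All 42 were found, and each has its AGP or FLA name as symbol or synonym in the RefSeq gene table. The 23 AGP genes comprise 10 arabinogalactan (AG) peptides, 9 classical AGPs, 2 lysine-rich AGPs and 2 chimeric AGPs. The 19 FLA genes fall into the groups A (6 genes), B (4), C (7) and D (2).

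The samples were roots of an XVE:PAN line in the Col-0 ecotype, in which β-estradiol switches on the bZIP transcription factor gene PERIANTHIA (PAN) through a chimeric activator. Plants were moved to medium with 10 uM β-estradiol and 1% sucrose for 0, 6 or 24 h, and all were grown for 5 days in total. Each time had 3 biological replicates, 9 samples in all. The groups were XVE:PAN at 0 h, XVE:PAN at 6 h and XVE:PAN at 24 h, so every group carries the transgene. A line without it and mock-treated plants were not analysed here, so PAN induction, estradiol and time since transfer cannot be told apart. The labels call the source whole root in one field and root cut about 0.5 cm from the tip in another, and they do not say how many independent transgenic lines were used.

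AGPs are secreted proteins of the plasma membrane and cell wall. Their prolines are hydroxylated and then carry large arabinogalactan chains, and many are held to the membrane by a glycosylphosphatidylinositol (GPI) anchor. Classical AGPs consist largely of the glycosylated region, AG peptides keep only a short stretch of it, and FLAs add fasciclin domains, a fold known for cell adhesion. In roots these proteins have been linked to cell expansion, root hair growth and the response of the wall to salt.

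The table gives 1 FPKM value per gene and time, a read count scaled by transcript length and library size, which the authors made from the 3 replicates. No spread between replicates can therefore be given. The q-values deposited by the authors are the one place where it counts. A gene was tested when its mean over the 3 times was at least 1 FPKM and called when its deposited q-value was below 0.05. The depth of the libraries is unknown. The sum over all rows was 933264, 860568 and 989899 FPKM at 0, 6 and 24 h. The induced gene PAN stood at 1.03, 688 and 385 FPKM at 0, 6 and 24 h. Changes are differences of log2(FPKM + 1) unless the authors' log2 fold change is named, and adding 1 makes the changes of weakly expressed genes look smaller.

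The coding sequences show what sets the subfamilies apart. Codons for proline, alanine, serine or threonine made up a median of 63.9% of the coding sequence in the 9 classical AGPs, with a range of 53.7% to 72.6%. In the 10 AG peptides the median was 42.5%, and in the 19 FLAs it was 34.8%. A proline codon directly after one for alanine, serine or threonine, the usual context of a glycosylated hydroxyproline, occurred 12 to 29 times in a classical AGP and 3 or 4 times in an AG peptide. Such pairs were counted over the whole coding sequence, including any part for a signal peptide, so not every pair need be a glycosylated site. The AG peptides were encoded by only 58 to 74 codons. The 4 coding sequences below, from RefSeq's TAIR10.1, are shown because the first pair was called lower and the second pair higher at 24 h, AGP16 and AGP20 by little once the length trend described below was removed. Capitals mark the codon pairs that end in proline. In AGP20 the pair TCTCCA stands apart from the others, nearer the start.
AGP15 (chr5:3783930-3784963, plus strand): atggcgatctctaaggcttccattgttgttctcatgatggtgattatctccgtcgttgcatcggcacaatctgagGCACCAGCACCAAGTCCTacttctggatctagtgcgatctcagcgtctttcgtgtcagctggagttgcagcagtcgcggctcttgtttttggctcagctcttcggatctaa
AGP22 (chr5:21603569-21604414, plus strand): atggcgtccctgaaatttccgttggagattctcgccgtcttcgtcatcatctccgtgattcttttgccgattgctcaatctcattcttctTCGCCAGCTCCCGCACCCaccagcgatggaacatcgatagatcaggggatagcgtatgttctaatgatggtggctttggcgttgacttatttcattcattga
AGP16 (chr2:19018264-19019364, minus strand): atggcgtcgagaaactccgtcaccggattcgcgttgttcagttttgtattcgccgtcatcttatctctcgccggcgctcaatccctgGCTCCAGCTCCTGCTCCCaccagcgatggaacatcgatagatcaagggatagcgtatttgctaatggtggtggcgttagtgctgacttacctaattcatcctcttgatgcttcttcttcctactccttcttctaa
AGP20 (chr3:22810041-22811024, minus strand): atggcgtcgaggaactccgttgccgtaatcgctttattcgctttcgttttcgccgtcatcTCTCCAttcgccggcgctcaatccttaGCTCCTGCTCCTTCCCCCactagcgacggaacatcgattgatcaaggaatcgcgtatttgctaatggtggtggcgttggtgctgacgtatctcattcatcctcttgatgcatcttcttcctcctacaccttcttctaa
The coordinates are those of the whole gene. AGP16 and AGP20 were the most alike of all AG peptide pairs, with 84.2% identical columns in a global alignment of the coding sequences. AGP22 and AGP16 (AT2G46330) had 62.0% identical columns and an unbroken shared run of 29 bases, which begins at the last proline codon in capitals, CCC. AGP15 and AGP16 shared no run longer than 7 bases. No member shared a 100-base stretch of its longest transcript with a gene that it does not overlap.

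Together the 42 genes were a sizeable share of the root transcriptome. Their summed level was 24853, 15073 and 17965 FPKM at 0, 6 and 24 h, or 2.66%, 1.75% and 1.81% of the sum over all rows. AG peptides held most of it, with 14034, 8525 and 9539 FPKM at the same times. Of the 100 rows with the highest value, 12 were members at 0 h and 3 at 24 h. A rank also depends on the other rows. AGP9 and AGP13, not called at 24 h against 0 h, went from numbers 95 and 87 to 163 and 164. AGP24 was the highest member at every time and was number 3 of all rows at 0 h. At the other end, FLA3, FLA5, FLA14, FLA21 and AGP5 (AT1G35230) had means under 1 FPKM and were not tested, which left 37 members. FLA3, known from pollen, was listed at 0 at all 3 times. FLA14, also known from pollen, was listed at 0 at 0 and 24 h and had 0.0594 FPKM at 6 h. FLA5 and FLA21 were listed at 0 at 0 h and had at most 0.238 FPKM later. AGP5 had 0.230, 0.668 and 1.52 FPKM at 0, 6 and 24 h.

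**Figure D1:**
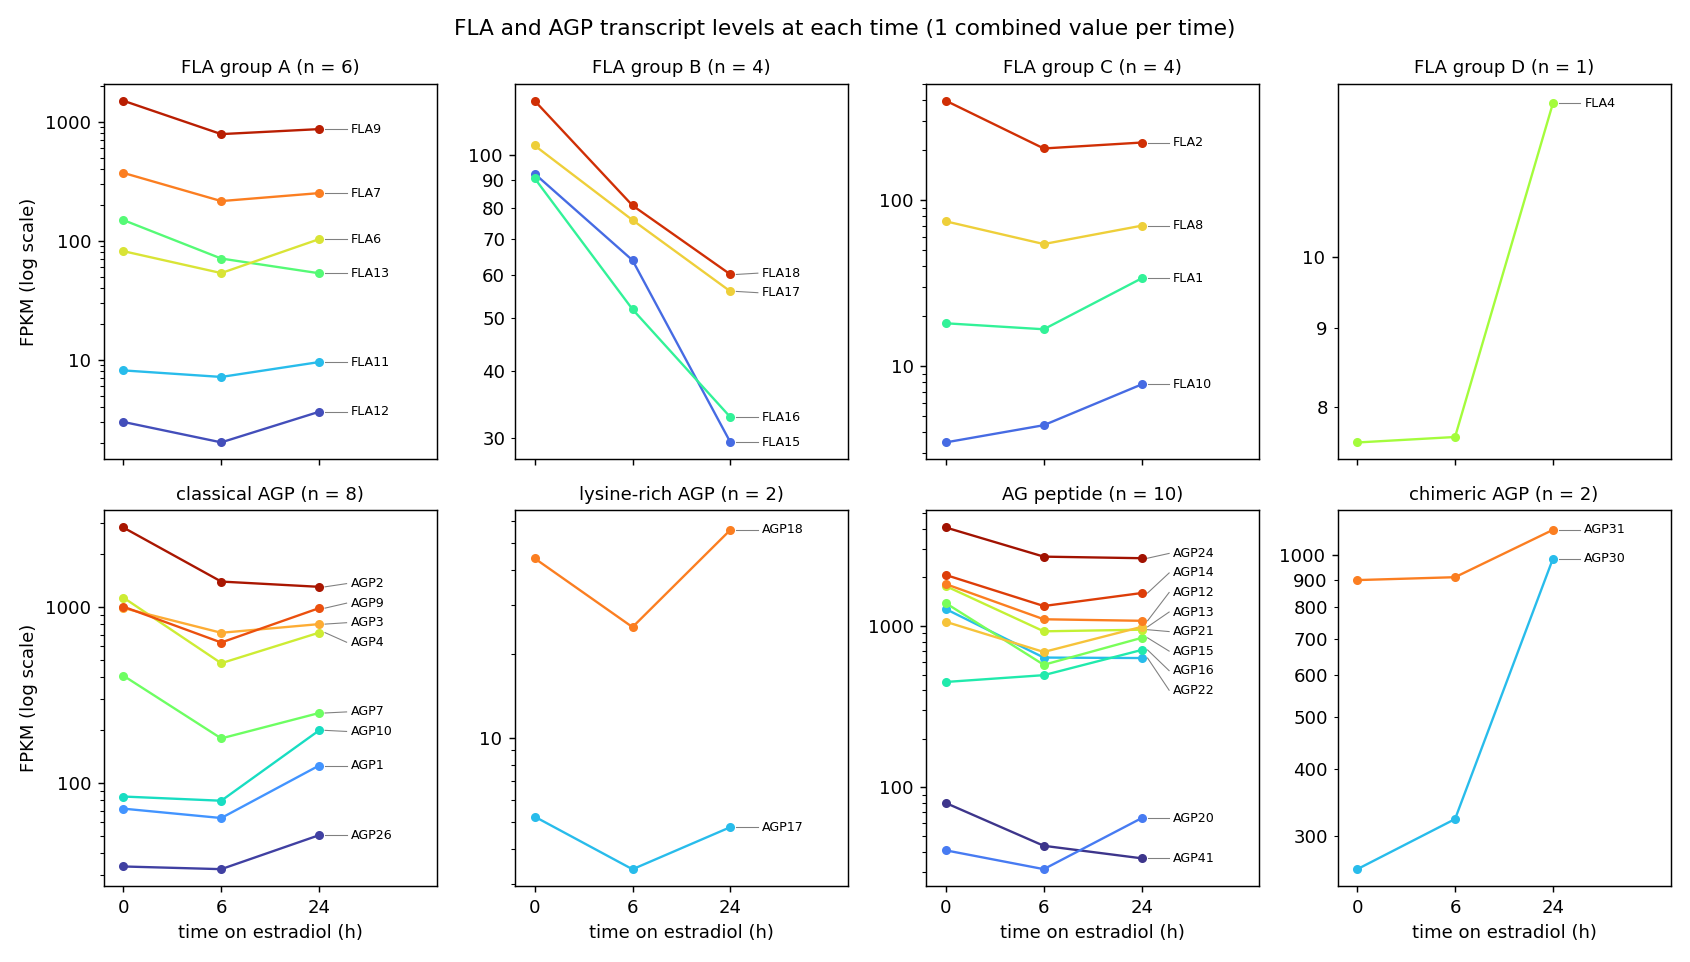
FPKM (log axis, a different range in each panel) of the 37 tested members at 0, 6 and 24 h on estradiol, 1 panel per subfamily and 1 line per gene; each point is the authors' value over 3 replicates. Most lines dip at 6 h, FLA group B goes on down to 24 h, and AGP30 climbs to 986 FPKM at 24 h.

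At 6 h against 0 h, 24 of the 37 tested members fell and none rose. Over all 17841 tested genes the rule called 11.3%, of which 7.35% were lower and 3.98% higher. The median change of the tested members was -0.60, against 0.02 over all tested genes, and 5 members changed by at least 1 in log2(FPKM + 1), a size at which 1.31% of all tested genes were called lower and 1.27% higher. These 5 were AGP15, AGP4, AGP7, FLA13 and AGP2. The 13 uncalled members lay between -0.51 and 0.31, and 8 of them were below 0. Under quantile normalization 7 of the 24 falls were smaller by over 1.5 times, and none changed sign. Fewer cells of a type and less RNA per cell cannot be told apart in bulk root samples.

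The fall at 6 h was seen at every level of expression from 10 FPKM upward. All 6 members with a mean of at least 1000 FPKM fell, as did 9 of 13 between 100 and 1000 FPKM and 9 of 13 between 10 and 100 FPKM. None of the 5 members between 1 and 10 FPKM was called, where 5.13% of 7581 other genes were lower and 4.39% higher. So few members cannot show a limit of level for the fall. Among other genes of the 3 levels from 10 FPKM upward, highest first, 16.3% of 98, 9.69% of 1683 and 8.52% of 8442 were called lower. In the upper 2 of these levels 1.02% and 3.03% of the others were called higher. Transcript length had little trend with the change at this time, with a running median of 0.04 at 500 bases and 0.0013 at 2000 bases.

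**Figure D2:**
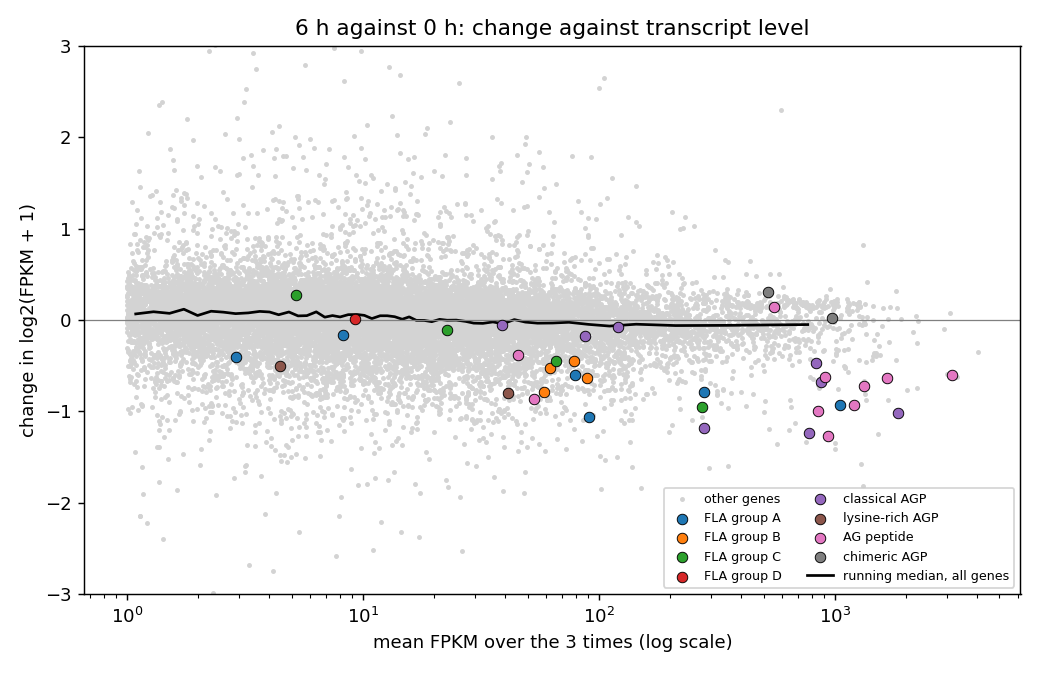
Change in log2(FPKM + 1) at 6 h against 0 h (vertical axis) against mean FPKM over the 3 times (log axis) for 17841 tested genes (grey), with the 37 tested members coloured by subfamily and the running median of all genes as a line; 19 genes lie beyond the axis. The members lie mostly below the line, with a median of -0.60, while other genes, taken in 4 classes of level, have medians from -0.10 to 0.07.

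At 24 h against 0 h the members had split: 17 of the 37 were lower and 9 higher. Over all tested genes 47.7% were called in this comparison, 23.8% lower and 23.8% higher, so the share of members higher, 24.3%, was near the background, and the share lower was 45.9%. The median change was -0.30, against 0.05 over all tested genes. A change of at least 1 was seen in 7 lower members (8.37% of all tested genes) and in 2 higher ones (9.44%), AGP30 and AGP10. Set against 6 h, 16 members were higher at 24 h and 2 lower, where the background was 39.4%, with 19.6% higher and 19.8% lower. Of the higher members 12 were among the 22 tested AGP genes, and of other genes in the AGP length range 35.4% were called higher. The members' median for 24 h against 6 h was 0.37, but 0.10 under quantile normalization and 0.03 with the length trend, described next, removed. With a change of at least 1, 4 members were higher (6.45% of all tested genes) and 1 lower (5.07%). By level, 5 of the 6 members of at least 1000 FPKM were lower at 24 h against 0 h and none higher, where 30.6% of other genes were lower and 32.7% higher. Of the 13 members between 100 and 1000 FPKM, 6 were lower and 3 higher, where 28.2% and 30.1% of other genes were. Against 6 h, 8 of those 13 were higher at 24 h (31.8% of other genes) and none of the 6 highest was (34.7%). The 3 comparisons share libraries, so they are set side by side here and not counted against each other.

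Length went with the change at 24 h over all genes. The running median was 0.58 at 500 bases, 0.49 at 1000 bases and -0.04 at 2000 bases for 24 h against 0 h. Most AGP genes are short and the FLA genes of group B are long, so the AG peptides, the classical AGPs and FLA group B are also set beside other tested genes of their own length range. With the trend removed, the median of the tested members at 24 h against 0 h was -0.75, against -0.30 before. It was -1.24 in the AG peptides, -0.56 in the classical AGPs and -0.57 in FLA group A. Of the 26 called changes at 24 h against 0 h, 5 became smaller and 9 larger by over 1.5 times on removal of the trend, and of the 18 at 24 h against 6 h, 11 became smaller.

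**Figure D3:**
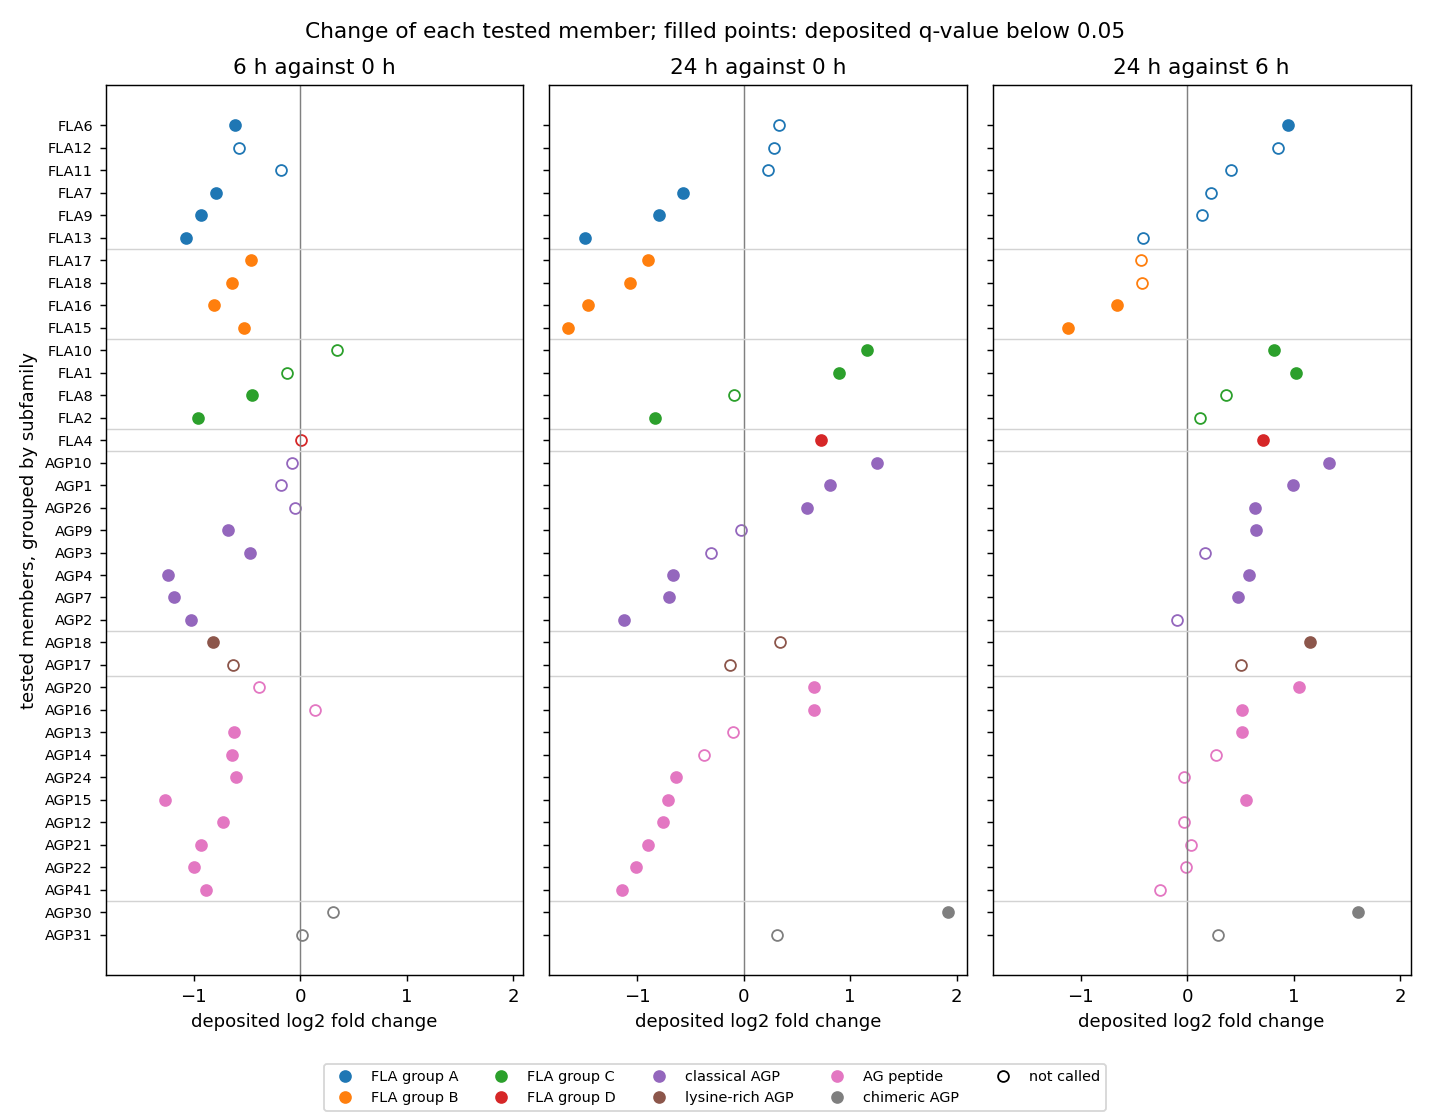
Fold change on a log2 scale, from the authors' deposited table (horizontal axis), for each of the 37 tested members, grouped and coloured by subfamily, in the 3 comparisons; filled points have a deposited q-value below 0.05 and open points do not. Every filled point of the 6 h panel lies left of 0, while in the panel of 24 h against 0 h 17 lie left and 9 right.

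AG peptides, whose mature chains are only a few residues of glycosylated backbone, were the most abundant subfamily. Of the 10, 8 fell by 6 h. At 24 h against 0 h 6 were lower and 2 higher, and set against 6 h 4 were higher and none lower. The share higher against 6 h, 40%, was near the 43.2% of other genes of the same length range. Of those genes 6.16% were lower at 6 h and 9.39% at 24 h against 0 h. AGP15 (AT5G11740) had 1385, 575 and 845 FPKM at 0, 6 and 24 h. It fell by 1.27 at 6 h, a 2.41-fold lower level and the largest fall of any tested member at that time. Under quantile normalization AGP7 and AGP4 changed more at 6 h, by -1.15 and -1.13, than AGP15, by -1.04. At 24 h AGP15 was above its 6 h and below its 0 h value. Its rise of 0.55 at 24 h against 6 h was 0.10 under quantile normalization and 0.11 with the length trend removed. AGP22 (AT5G53250) had 1274, 637 and 633 FPKM at 0, 6 and 24 h. AGP41, its closest relative by coding sequence with 69.6% identical columns, had 79.9, 43.4 and 36.3 FPKM. In both genes the 6 h level was below the 0 h level and the 24 h level was not above the 6 h level. AGP21 (AT1G55330), reported to act in root hair fate under brassinosteroid control, had 1768, 927 and 949 FPKM, and its fall of 0.93 at 6 h became a fall by 0.58 under quantile normalization.

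AGP24 (AT5G40730) had 4082, 2693 and 2633 FPKM at 0, 6 and 24 h. AGP12 (AT3G13520) had 1819.9, 1101 and 1078 FPKM. Both fell at 6 h, by 0.60 and 0.72, and stood at nearly the same level at 24 h. Under quantile normalization AGP24 fell by 0.30 at both times and AGP12 fell by 0.32 at 6 h. AGP14 (AT5G56540), whose mutants have been described with longer root hairs, had 2072, 1331 and 1602 FPKM, and AGP13 (AT4G26320) had 1062, 690.4 and 988 FPKM. These 2 genes fell by 0.64 and 0.62 at 6 h, or fell by 0.25 and 0.41 under quantile normalization, and were not called at 24 h against 0 h, where the authors' deposited table lists q = 0.145 and q = 0.733. The other 2 AG peptides were called higher at 24 h. AGP16 had 449.95, 496 and 711 FPKM, and AGP20 (AT3G61640) had 40.7, 31.1 and 64.5 FPKM. Neither was called at 6 h, and each rose at 24 h against 0 h, by 0.66 and 0.65, and the authors' deposited table lists q = 0.00148 and q = 0.0113. With the length trend removed these rises were 0.17 and 0.08, so both genes lay near other genes of like length. Quantile normalization gave AGP16 a rise of 0.35. At 24 h against 6 h they rose by 0.52 and 1.03, or by 0.03 and 0.47 with the length trend removed, and AGP16 by 0.15 under quantile normalization. These 2 genes have the most similar pair of coding sequences printed above.

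Set beside genes of like length, the AG peptides stood low at 24 h. Their transcripts were 427 to 1034 bases long. The 2662 other tested genes in that range had a median change of 0.56 for 24 h against 0 h, with 44.1% called higher and 9.39% lower. The tested AG peptides had a median of -0.67. At 6 h against 0 h the same other genes had a median of 0.04 and the AG peptides one of -0.68, or -0.37 under quantile normalization. For 24 h against 6 h the AG peptides had a median of 0.15, whose sign turned under quantile normalization and after removal of the length trend.

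**Figure D4:**
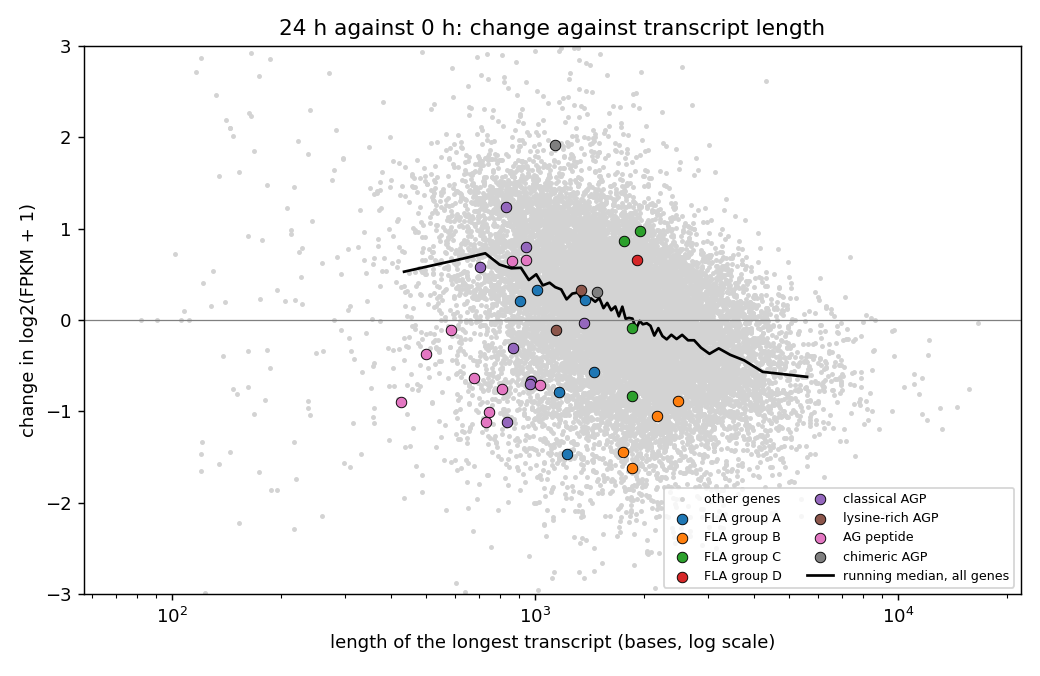
Change in log2(FPKM + 1) at 24 h against 0 h (vertical axis) against the length of the longest transcript (log axis) for 17501 tested genes with a length (grey), with the 37 tested members coloured by subfamily and the running median of all genes as a line; 63 genes lie beyond the axis. The line falls with length, and 8 of the 10 AG peptides, among the shortest members, lie below 0 where the line lies above it.

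The classical AGPs are the longer proteins built almost wholly of the glycosylated region. Of the 8 tested, 5 fell by 6 h and none rose. At 24 h against 0 h 3 were lower and 3 higher, and set against 6 h 6 were higher and none lower. The share higher at 24 h against 0 h, 37.5%, was near the 39.6% of other genes of the same length range. Of those genes 7.18% were lower at 6 h. At 24 h against 0 h 12.1% of them were lower, against 37.5% of the tested classical AGPs. Against 6 h 37.8% of those genes were higher, and the median of the classical AGPs was 0.60, or 0.28 under quantile normalization and 0.06 with the length trend removed. AGP2 (chr2, minus strand) had 2843, 1402 and 1308 FPKM at 0, 6 and 24 h, a 2.03-fold lower level at 6 h and 2.17-fold lower at 24 h. Its change at 6 h was -1.02, or -0.58 under quantile normalization. AGP4 (AT5G10430), also named JAGGER for its part in blocking extra pollen tubes, had 1137, 482 and 719 FPKM. AGP7 (AT5G65390) had 409, 180.1 and 251 FPKM. AGP4 and AGP7 fell by 1.24 and 1.18 at 6 h, and both were higher at 24 h than at 6 h and still lower than at 0 h. Their rises of 0.58 and 0.48 at 24 h against 6 h were 0.11 and 0.0099 with the length trend removed, and that of AGP4 was 0.22 under quantile normalization.

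AGP9 (AT2G14890) had 1009.7, 632 and 990.3 FPKM at 0, 6 and 24 h. The authors' deposited table lists q = 0.00174 for its fall at 6 h and q = 0.00564 for its rise at 24 h against 6 h, which was 0.65, or 0.16 under quantile normalization and 0.42 with the length trend removed. AGP3 (AT4G40090) had 992, 717 and 803 FPKM, and its fall of 0.47 at 6 h stands just under the limit in the authors' deposited table, with q = 0.0494. That call was lost when p-values were adjusted within the comparison, and AGP3 fell by 0.26 under quantile normalization. The remaining 3 classical AGPs were not called at 6 h and rose at 24 h. AGP10 (AT4G09030) had 84.2, 79.7 and 200.2 FPKM, a 2.38-fold higher level at 24 h than at 0 h. AGP1 (AT5G64310) had 71.9, 63.6 and 126 FPKM. With the length trend removed, the rises of AGP10 and AGP1 at 24 h against 0 h were 0.65 and 0.32, against 1.24 and 0.81 before, and those at 24 h against 6 h were 0.71 and 0.49, against 1.32 and 0.98. AGP26 (AT2G47930) had 33.7, 32.6 and 50.8 FPKM, and its rise of 0.58 at 24 h turned to -0.14 once the length trend was removed. The 5 genes that fell at 6 h had 0 h levels of 409 FPKM or more, and the 3 that rose at 24 h had 84.2 FPKM or less. The 0 h value is also the baseline of these changes, and a link of level and change was not tested. In other subfamilies AGP41, at 79.9 FPKM at 0 h, fell, and AGP16 and AGP30, at 449.95 and 261 FPKM, rose at 24 h. Over 4748 other tested genes of 707 to 1362 bases, the median change at 24 h against 0 h was 0.41, against -0.17 in the tested classical AGPs, or -0.50 under quantile normalization.

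The lysine-rich AGPs carry a short basic region within the glycosylated part. AGP18 (AT4G37450), known for its part in the choice of the functional megaspore, had 43.9, 24.9 and 55.6 FPKM at 0, 6 and 24 h. It fell by 0.79 at 6 h and was higher at 24 h than at 6 h by 1.13. AGP17 (AT2G23130), known from Agrobacterium binding to roots, had 5.22, 3.38 and 4.78 FPKM and was called in no comparison.

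The chimeric AGPs join an AGP-type region to another cysteine-containing domain. AGP30 (chr2:14293561-14295353, minus strand), described in root regeneration and seed germination, had 261, 323 and 986 FPKM at 0, 6 and 24 h. Its level at 24 h was 3.78-fold higher than at 0 h and 3.05-fold higher than at 6 h, the largest rises of any tested member. The authors' deposited table gives both the smallest q-value of the table, 0.000358, and 0.203 for 6 h against 0 h. In log2(FPKM + 1) the rises of AGP30 were 1.92 and 1.61, or 1.56 and 1.26 with the length trend removed. Under quantile normalization they were 1.63 and 1.21, and AGP10 then rose slightly more at 24 h against 6 h, by 1.22. AGP31 (AT1G28290), a wall protein that binds pectin, had 899, 910.4 and 1115 FPKM and was called in no comparison. The 0 h level of AGP30 was below that of AGP31, while their 24 h levels were close.

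Among the FLAs, 10 of the 15 tested fell by 6 h and none rose. At 24 h against 0 h 8 were lower and 3 higher, and set against 6 h 2 were lower and 4 higher. Of 12002 other tested genes in the FLA length range, 8.10% were lower at 6 h. At 24 h against 0 h 20.3% of them were lower and 26.3% higher, so the FLA share higher, 20%, was near the background. Against 6 h 15.5% of them were lower and 21.3% higher, near the FLA shares of 13.3% and 26.7%. Group B was the most uniform. FLA15 (AT3G52370) had 92.4, 64.0 and 29.5 FPKM at 0, 6 and 24 h, FLA16 (AT2G35860) had 90.7, 51.9 and 32.8, FLA17 (AT5G06390) had 104, 75.9 and 56.0, and FLA18 (AT3G11700) had 126, 80.7 and 60.2. Each value was below that of the time before it. All 4 were called lower at 6 h and at 24 h against 0 h, and FLA15 and FLA16 also at 24 h against 6 h. Adjusting within each comparison lost the call of FLA17 at 6 h and added those of FLA17 and FLA18 at 24 h against 6 h, so that lower members there numbered 4 in place of 2. The fall of FLA15 at 24 h, by 1.61 or 3.13-fold, was the largest of any tested member before removal of the length trend. With the trend removed FLA15 changed by -1.63, and AGP41, AGP22, FLA13 and AGP2 by -1.84, -1.71, -1.70 and -1.70. The 4912 other tested genes of 1746 to 2470 bases had a median change of -0.07 at 24 h against 0 h, with 27.5% called lower, against a median of -1.25 in group B.

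Group A holds the short FLAs with a single fasciclin domain. FLA9 (AT1G03870), the highest FLA, had 1503, 787 and 868 FPKM at 0, 6 and 24 h. FLA7 (AT2G04780) had 372, 215 and 251 FPKM. FLA13 (AT5G44130) had 149, 70.9 and 53.3 FPKM, and fell 2.11-fold at 6 h and 2.80-fold at 24 h. These 3 genes were lower than at 0 h at both later times. FLA6 (AT2G20520) had 81.8, 53.5 and 103 FPKM, lower at 6 h than at 0 h and higher at 24 h than at 6 h by 0.93, or 0.48 with the length trend removed. FLA11 and FLA12 (AT5G60490), linked to secondary walls of stems, had 7.17 to 9.56 FPKM and 2.02 to 3.65 FPKM over the 3 times. Neither was called in any comparison, and the xylem markers among the lists below were not called either.

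Group C was mixed. FLA2 (AT4G12730) had 396, 204 and 222 FPKM at 0, 6 and 24 h, and was lower than at 0 h at both times. FLA8 (AT2G45470) had 74.3, 54.2 and 69.96 FPKM and was called only at 6 h, where the authors' deposited table lists q = 0.0368, a call that was lost when p-values were adjusted within the comparison. FLA1 (AT5G55730), reported in lateral root and shoot development in culture, had 18.1, 16.6 and 33.7 FPKM. FLA10 (AT3G60900) had 3.47, 4.40 and 7.75 FPKM. Both rose at 24 h against 0 h, by 0.86 and 0.97, and at 24 h against 6 h, by 0.98 and 0.70. In group D, FLA4 (AT3G46550) had 7.59, 7.65 and 12.6 FPKM. FLA4, also named SOS5, is needed for normal root cell expansion on salt. It was not called at 6 h and rose by 0.66 at 24 h, where the authors' deposited table lists q = 0.00720. The 3 FLAs that rose at 24 h had 0 h levels of 18.1 FPKM or less, though the 0 h value is also the baseline of these rises.

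Prolyl 4-hydroxylases, which make the hydroxyproline of AGPs, the enzymes that glycosylate it and the receptor kinases that act with FLA4 were examined as a list of 22 genes, of which 20 were tested. By 6 h 2 were lower and none higher, a share of 10% against 8.07% of other genes of the same length range. At 24 h against 0 h 7 were lower and none higher, or 35% against 25.9%. Set against 6 h 4 were lower and none higher, or 20% against 20.8%. The shares lower were thus near the background by 6 h and between 6 and 24 h. Among the other genes of that length range 4.08% were called higher by 6 h, where the list had none. Between 0 and 24 h 19.1% of those genes were higher, and between 6 and 24 h 12.9% were, again with none in the list. For the 20 tested genes of the list, the median change by 24 h from the 0 h level was -0.33. FUT4, a fucosyltransferase acting on AGPs in roots, had 109, 79.9 and 35.6 FPKM at 0, 6 and 24 h. Its 24 h level differed from the 0 h level by -1.59. GALT6, which adds the first galactose to hydroxyproline, had 6.35, 8.12 and 3.26 FPKM and changed by -1.10 at 24 h against 6 h. The other genes called at 24 h against 0 h were FUT6, RAY1, FEI1, the prolyl 4-hydroxylase gene P4H5 and GLCAT14B, with changes from -0.97 to -0.50. Of these, FEI1 is a receptor kinase of the FLA4 pathway, and its partner FEI2 was called in no comparison. The length range was 1426 to 2920 bases and held 9231 other tested genes.

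**Figure D5:**
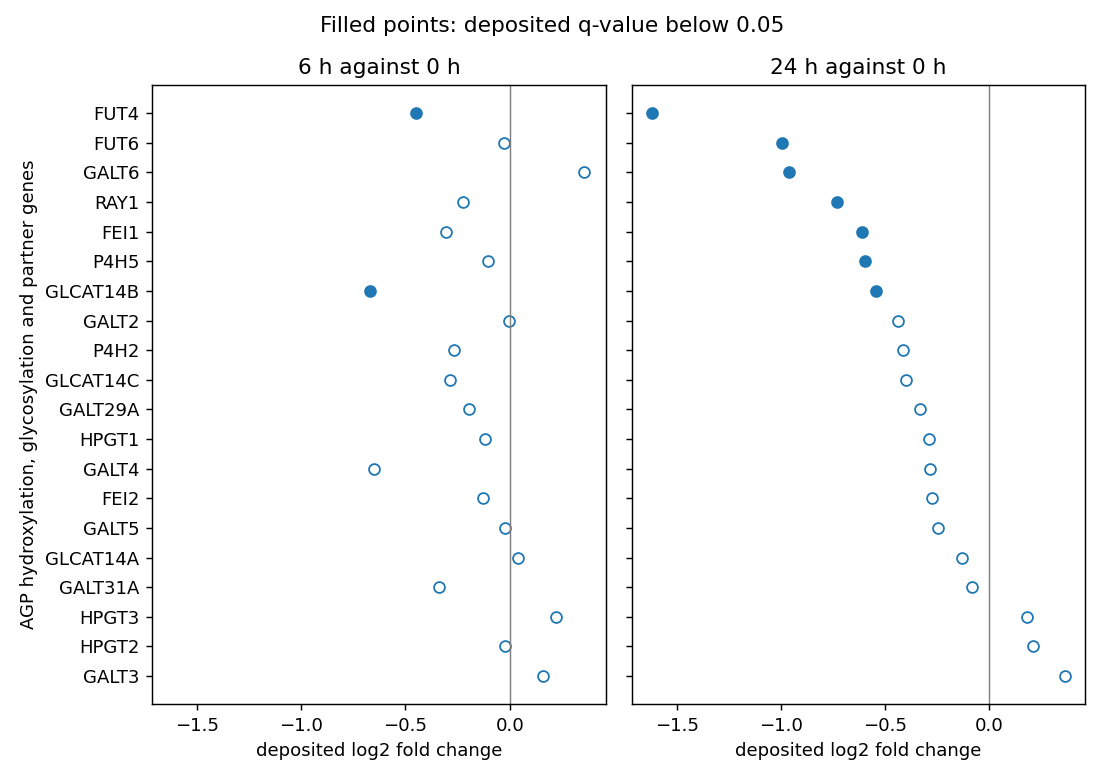
Fold change on a log2 scale, from the authors' deposited table (horizontal axis), for the 20 tested AGP hydroxylation, glycosylation and partner genes at 6 h against 0 h (left) and 24 h against 0 h (right); filled points have a deposited q-value below 0.05. Filled points, 2 at 6 h and 7 at 24 h, all lie left of 0.

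Markers of root cell types changed over the same times. The 7 root hair markers had a summed level of 2296, 1746 and 1249.8 FPKM at 0, 6 and 24 h. Of the 7, 2 were called lower at 6 h, where all 7 changes were below 0, and 7 at 24 h against 0 h. Among other genes in their length range 7.85% were lower at 6 h and 24.3% at 24 h. The 3 root cap markers summed to 94.3, 89.0 and 37.6 FPKM, with none called at 6 h and 3 of 3 lower at 24 h. In their length range 17.5% of other genes were lower at 24 h against 0 h. The 4 markers of dividing cells summed to 33.4, 45.5 and 75.3 FPKM, with 1 of 4 higher at 6 h and 4 of 4 at 24 h. For other genes in their length range the shares higher were 4.60% and 27.1%. The 3 endodermis markers summed to 867, 651 and 614 FPKM, with 1 of 3 lower at 24 h, where 21.3% of other genes in their length range were. The 6 xylem markers summed to 47.3, 45.7 and 50.3 FPKM, and none of the 5 tested was called. The 3 phloem markers summed to 2.25, 1.94 and 3.48 FPKM. APL and SEOR1 among them had means under 1 FPKM and were not tested. The 1 tested phloem marker, SUC2, had 1.42, 1.10 and 1.28 FPKM and was not called. The 3 leaf markers summed to 15.5, 11.2 and 56.0 FPKM. Both tested ones were higher at 24 h against 0 h, where 34.2% of other genes in their length range were. No marker was listed at 0 at any time, and the part of these cell types in the members' changes was not tested.

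Overlap with other genes limits some values. The libraries were made with a strand-specific kit, per the labels, but the strand setting of the counting is not given in the sources used here. In TAIR10.1, 9 members overlap a gene on the other strand. The share of 100-base stretches that lie in that gene was 80.8% for AGP21, 75.2% for FLA16, 33.1% for AGP26, 28.6% for AGP4, 17.8% for AGP10 and 15.3% for AGP16. For FLA3 and FLA14 it was 96.2% and 100%, and for FLA11 no whole stretch lay in the neighbour. If reads were counted without strand, those of a member and its partner cannot be told apart.

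The promoters were searched for TGACG, the core motif bound by the TGA class of bZIP factors to which PAN belongs, on both strands in the 250 bases before each gene start. It was present in 6 of all 42 members, tested or not (14.3%), against 19.3% of 17500 loci that were all tested. The members were AGP2, AGP13, AGP17, AGP30, FLA15 and FLA21, of which FLA21 was not tested. The windows of AGP30, which rose most at 24 h against 0 h, and of AGP2, which fell, are printed from TAIR10.1. They run 5′ to 3′ on the strand of the gene, with the motif or its reverse complement in capitals.
AGP30 (chr2:14295354-14295603, minus strand): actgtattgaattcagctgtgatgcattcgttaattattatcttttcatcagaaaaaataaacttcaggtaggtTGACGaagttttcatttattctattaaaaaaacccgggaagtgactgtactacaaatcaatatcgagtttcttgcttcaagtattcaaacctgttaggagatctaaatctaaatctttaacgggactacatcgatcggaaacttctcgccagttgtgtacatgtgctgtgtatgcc
AGP2 (chr2:9538964-9539213, minus strand): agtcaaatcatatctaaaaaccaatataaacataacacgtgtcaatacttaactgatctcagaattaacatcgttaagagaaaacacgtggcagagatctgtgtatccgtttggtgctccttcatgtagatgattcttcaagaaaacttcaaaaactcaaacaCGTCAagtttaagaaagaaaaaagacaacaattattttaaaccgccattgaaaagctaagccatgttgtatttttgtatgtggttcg
The match begins 176 bases before the start of AGP30, and in AGP2 it lies on the other strand, from 87 bases before the start. A match is a description of letters and shows no binding.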

How the data were processed

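Polyadenylated RNA of roots was sequenced in 9 samples, 3 per time, as single-end reads of 100 bp, per the labels' protocols. The authors combined the replicates of a time before deposit. Per the submitters' processing notes, TopHat2 2.0.13, Cufflinks 2.1.1, Cuffdiff and the build TAIR10 were used. The deposited values carry no unit in the header and were taken as FPKM, because they are not whole, sum differently by time and stand beside the output of Cuffdiff. The authors also deposited a log2 fold change (later over earlier) and a q-value per comparison.

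Groups were the times in the sample titles. Genes with a mean of at least 1 FPKM were tested, 17841 rows, and called at a deposited q-value below 0.05. The smallest q-value, 0.000358, is shared by 7475 tests and is a floor. Changes used a pseudocount of 1. No fit across replicates could be made, so limma, exact permutation tests and fits without a replicate were not run. Transcript lengths (17501 tested rows), overlaps, positions and sequences came from RefSeq's TAIR10.1, matched by locus identifier, since the file holds no coordinates. Names of 8 of the galactosyltransferases in the list of modifying enzymes and partners came from general knowledge. The trend with length was the median change in 50 length bins. Python 3.11.15, numpy 2.4.6, pandas 2.3.3 and Biopython 1.88 were used, and the calculations were tested on simulated data. Members, lists and alternatives were chosen with earlier results of these data known. All members were counted, every member called in any comparison was given its values at the 3 times, and of the enzyme and partner list the called genes with a change of at least 1 were given values. The alternatives were other filters, q-value limits, a minimum change, adjustment within a comparison, another pseudocount, 2 scalings and removal of the length trend.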

Additional observations from a re-analysis of the deposited data

How the results depend on the processing

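No paired analysis was possible because each gene has only 1 combined value per time, and for the same reason no replicate could be left out. The number of members called stayed within 1.5 times the reported count with no filter, a minimum mean of 5, a q-value limit of 0.01, adjustment within the comparison and the demand that the sign holds with the length trend taken out. A minimum change of 1 in log2(FPKM + 1) left 5 members called by 6 h, 9 by 24 h and 5 between 6 and 24 h. A deposited log2 fold change of at least 1 in the authors' deposited table left 5, 10 and 6. With p-values recovered from the q-values and adjusted within 6 h against 0 h, 21 of the 24 members stayed called, and FLA8, FLA17 and AGP3 did not. The same adjustment within 24 h against 6 h added FLA17 and FLA18, which made 4 members lower.

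Of 68 called changes of single members, all 68 kept their sign with a pseudocount of 0.1 and under median-of-ratios scaling, 67 under quantile normalization and 65 after removal of the length trend. With the length trend removed, AGP26 changed by -0.14 at 24 h against 0 h and by -0.00058 at 24 h against 6 h, and AGP13 by -0.023 at 24 h against 6 h. Quantile normalization gave AGP13 -0.025 in the last comparison. Removal of the length trend also turned the medians of the lysine-rich AGPs at 24 h against 0 h (-0.19), and of FLA group A (-0.063) and the AG peptides (-0.33) at 24 h against 6 h. Quantile normalization turned that of the AG peptides (-0.10). The uncalled change of FLA4 at 6 h was -0.022 under quantile normalization and -0.0044 under median-of-ratios scaling. The cause of these turns was not tested. Neither scaling nor the pseudocount can move calls that rest on the deposited q-values. Read depth is unknown, so no limit from counting can be given.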
